A study of Arabidopsis thaliana with 40 samples.

Results

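The stepwise genes are nuclear *Arabidopsis thaliana* genes whose transcript level was higher in the *ubp12* single mutant than in wild-type (wt) seedlings, and higher again in the *ubp12/13* double mutant. They were chosen from the measured levels. CPM, the count of a gene scaled to 1e+06 counts over all nuclear genes of a library, had to average at least 1 in wt, every *ubp12* library had to lie above every wt library, and every *ubp12/13* library above every *ubp12* library. The *ubp12* mean also had to reach 1.4 times and the *ubp12/13* mean 2.5 times the wt mean. Of 33323 nuclear gene IDs, 17266 passed the wt minimum and 147 met all conditions. The libraries labelled *ubp13* took no part in the choice.

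RNA was sequenced from whole Col-0 seedlings grown for 15 days on plates under long days and harvested within a fixed window of hours after lights on. The 4 groups, with 3 libraries each, were the insertion mutant combination *ubp12-1 ubp13-3* (*ubp12/13*), the single mutants *ubp12-1* (*ubp12*) and *ubp13-3* (*ubp13*), and wt. The double mutant is sterile and strongly stunted, it was kept as a line heterozygous for *ubp13-3*, and *ubp13-3* is described as a weak allele, so each mutant group is 1 allele or 1 allele combination, and differences in size and development come with the double mutant. Nuclear counts per library ranged 12145023-15225396 in *ubp12/13*, 6822401-9109250 in *ubp12*, 10190084-12768034 in *ubp13* and 6545534-9494373 in wt. *UBP12* had 30.1-38.8 CPM in *ubp12/13*, 23.1-26.7 in *ubp12*, 85.3-89.8 in *ubp13* and 94-102 in wt. *UBP13* had 84.8-87 CPM in *ubp12/13*, 58.2-63.5 in *ubp12*, 142-159 in *ubp13* and 60.5-63.9 in wt, so the count over the whole gene rises with the *ubp13* label and does not check it. Genotype names therefore stand for the labels throughout. Summed CPM of 11 leaf photosynthesis markers was 76924-83635 in *ubp12/13* against 95925-109269 in wt, that of 10 root markers 189-234 against 158-212, that of 8 flower markers 3.46-4.79 against 3.16-5.68, and that of 9 seed markers 0.0809-0.576 against 0.153-0.316, with 7 of the 9 at 0 in every *ubp12/13* library and 7, not all of them the same genes, at 0 in every wt library. Of the 10 root markers, 7 averaged under 1 CPM in both groups, with 5 at 0 in every *ubp12/13* library and 4 in every wt library. The root sums therefore rest on few genes. Of the 8 flower markers, 6 averaged under 1 CPM in both groups. The part of these marker differences in the results was not tested, and in whole seedlings fewer cells of a type and less RNA per cell cannot be told apart.

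UBP12 and UBP13 are closely related ubiquitin-specific proteases that remove monoubiquitin from histone H2A and also act on other proteins. Several response programmes that plants keep low until a cue arrives bear on genes described here. Jasmonate, a lipid hormone of wounding and insect attack, induces its own biosynthetic enzymes together with JAZ repressors and the factor MYC2. Cold and water loss act through CBF factors, which bind the DRE sequence, and through abscisic acid, whose ABF factors bind the ABRE sequence. The circadian clock sets the daily phase of many of these programmes, and its evening genes share a promoter sequence called the evening element.

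Across the 147 genes, the *ubp12/13* mean was a median 4.28 times the wt mean, from 2.5 to 76.3 times, and the *ubp12* mean a median 1.91 times, from 1.4 to 5.73 times. These values chose the genes and are given as a description. The rise in *ubp12/13* was at least 10-fold for 17 genes, from 5-fold to under 10-fold for 38 and under 5-fold for 92. On the log2 scale, a median 46.2% of the full rise was already present in *ubp12*, with 18% for *MBP1* at one end and 83.4% for *AT1G56300*, a DnaJ-domain chaperone, at the other. Medians per library, relative to the wt mean of each gene, were 4.28, 3.7 and 4.06 in *ubp12/13*, 1.98, 1.75 and 1.99 in *ubp12*, 1.07, 1.09 and 1.37 in *ubp13* and 0.928, 1.12 and 0.924 in wt. Replicate 2 was the highest wt library for 84 of the 147 genes and the lowest *ubp12* library for 78, and *ubp13* replicate 3 was the highest of its group for 93. Among all 17266 genes these libraries held the same place for 38.8%, 30.9% and 42.4%. The *ubp12/13* replicate 2 was the lowest of its group for 74 of the 147 genes, against 26.2% of all genes. Stepwise order over all 9 libraries was met by 3.64% of the 17266 genes, and the opposite order, falling in *ubp12* and further in *ubp12/13*, by 273 genes, of which 51 passed the mirrored fold limits.

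**Figure D1:**
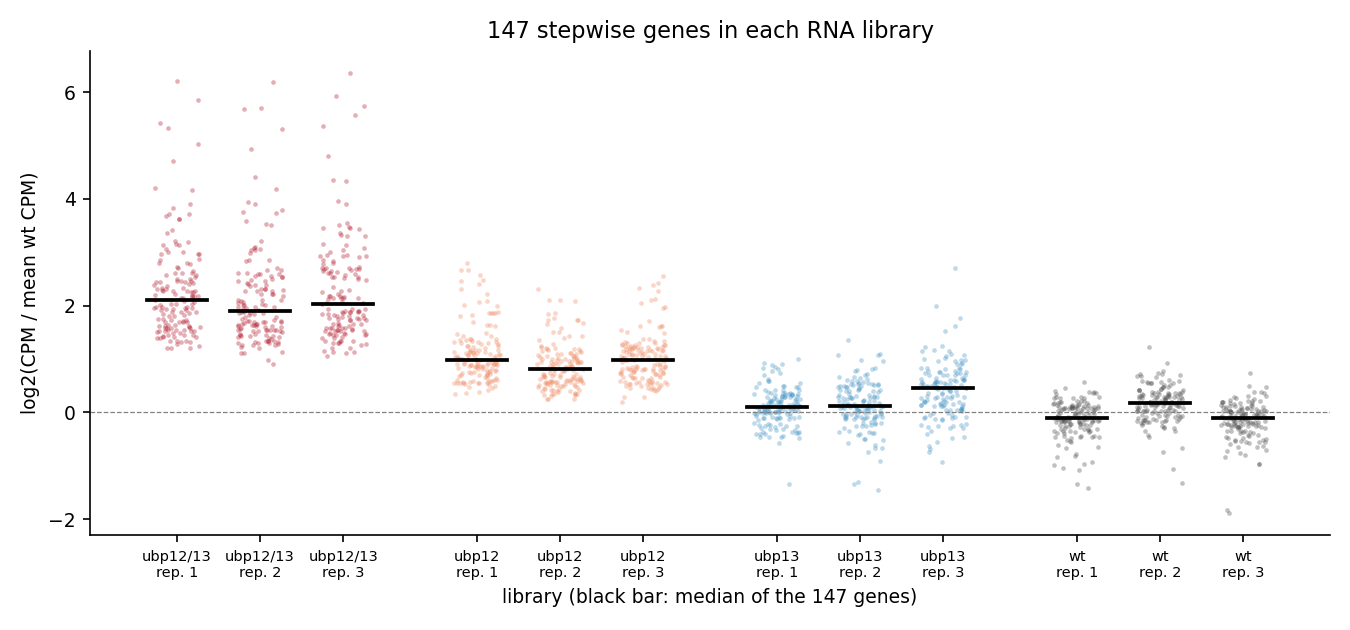
Level of each of the 147 genes in each of the 12 libraries as log2 of CPM over the mean wt CPM of that gene, with 1 point per gene and a black bar at the library median. The medians correspond to 3.7-4.28 times the wt mean in *ubp12/13*, 1.75-1.99 in *ubp12*, 1.07-1.37 in *ubp13* and 0.924-1.12 in wt. The first, second and last set of libraries were used to choose the genes.

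CPM scales each library to its nuclear total. On that scale the median of all genes tested lay 0.15 higher on the log2 scale in *ubp12/13* than in wt, against a shift of -0.00978 in *ubp12* and -0.0554 in *ubp13*. With TMM scaling, which sets the bulk of genes level, 119 genes met the rule and 115 of them were among the 147. Without *ubp12* replicate 2 the rule chose 235 genes, 146 of them among the 147, and without wt replicate 2 it chose 227, with 133 among the 147. The genes nearest to each limit show where the list ends. For the wt minimum, *SADHU10-1* at 1.023 and *TCP9* at 1.047 CPM were inside, and *SNRK2.9* at 0.9767 and *AT3G48650* at 0.9158 CPM outside. For the *ubp12* limit, *ABF2* at 1.401 and *AT2G44290* at 1.424 times wt were inside, and *ELF3* at 1.395 and *WES1* at 1.377 outside. For the *ubp12/13* limit, *AT3G60420* at 2.5 and *ABF2* at 2.506 times wt were inside, and *IQD23* at 2.477 and *SCPL49* at 2.468 outside.

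To see how far the order holds in libraries that did not choose the genes, 1 library of wt, of *ubp12* and of *ubp12/13* was left out at a time and the same rule applied to the other 6. Without the libraries numbered 1, 192 genes were chosen and 170 of them (88.5%) were in stepwise order in the libraries left out, against 32.2% of all genes. Without those numbered 3, 177 of 198 (89.4%) kept the order, against 28.5%. Without those numbered 2, the rule chose 379 genes and 218 (57.5%) kept the order, against 26.4%. In the libraries numbered 1 and 3 the genes chosen without them had median levels of 4.35 and 3.65 times the left-out wt library in *ubp12/13* and 1.9 and 1.92 times in *ubp12*. In those numbered 2 the medians were 2.3 times in *ubp12/13* and 1.08 times in *ubp12*. The first step, *ubp12* over wt, was therefore close to 1 in replicate 2, where the wt library lay high and the *ubp12* library low, while the level in *ubp12/13* stayed above both. Library numbers do not pair the samples, so these are 3 of the possible choices of libraries.

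**Figure D2:**
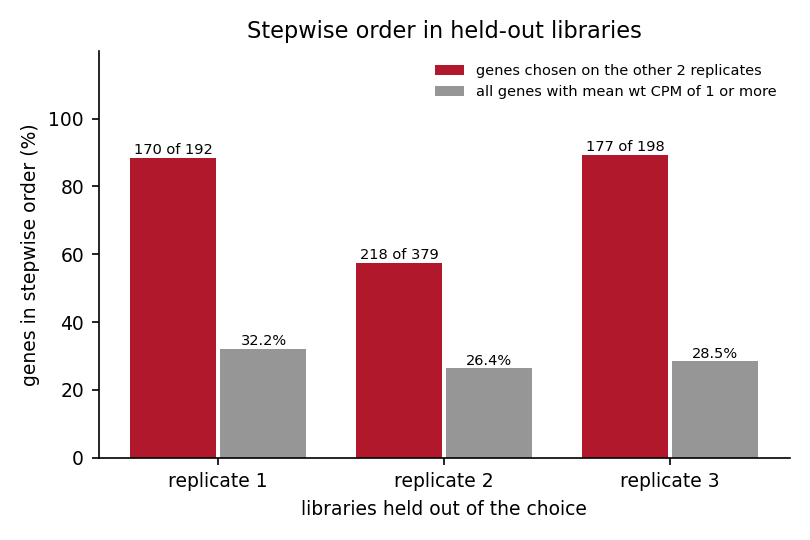
Share of genes in stepwise order in the libraries left out of the choice, as a bar in percent for replicates 1, 2 and 3. Red bars are the genes chosen on the other 2 replicates (170 of 192, 218 of 379 and 177 of 198) and grey bars all genes with a mean wt CPM of at least 1 in those replicates (32.2%, 26.4% and 28.5%).

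The *ubp13* libraries give the level of the same genes in the other single mutant. Their mean was below the *ubp12* mean for all 147 genes and above the wt mean for 118, with a median of 1.18 times wt and a range of 0.465 to 3.18, against a median of 0.96 over all genes. All *ubp13* libraries lay above all wt libraries for 23 genes (3.03% of all genes did so), below them for 1 gene, *WRKY46* (10.1% of all genes), and overlapped with wt for 123. For 102 genes every *ubp13* library lay below every *ubp12* library (9.62% of all genes). The wt and *ubp12* libraries in these counts also chose the genes, which favours low wt and high *ubp12* values. Set against wt libraries that had not chosen the genes, the *ubp13* mean was a median 1.19 and 1.17 times wt replicates 1 and 3 and 0.925 times wt replicate 2, where the medians of all genes were 0.982, 0.977 and 0.945.

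In edgeR's quasi-likelihood test of *ubp13* against wt, a call needed a Benjamini-Hochberg adjusted p under 0.05 and a log2 fold change (log2FC) of at least 1 in size. The libraries of a genotype are described as biological replicates, but whether they came from separate cultures is not given in the sources used here, so p-values measure the spread between these samples. Of the 147 genes, 0 were called higher and 0 lower (0.0227% and 0.00568% of all 17615 genes tested). At an unadjusted p under 0.05, 37 were higher and 2 lower, against 3.42% and 2.83% of all genes. DESeq2 also called 0, and at its adjusted p alone 3 genes passed, which were the cysteine-rich peptide gene *LCR69*, *AT1G13930* and *AT2G33830*. The median log2FC of the 147 genes was 0.29 in *ubp13* against -0.00427 over all genes tested. The wt libraries of this test also chose the genes, which favours low wt values, so these counts and the median are a description. The lowest p among the 147 was that of *LCR69*, with 62.5, 67.7 and 71.9 CPM in *ubp13* against 33.7, 51.7 and 39.9 CPM in wt (log2FC 0.75 ± 0.14 SE, edgeR adjusted p = 0.436). *KIN1* had a log2FC of 1.27 ± 0.28 (edgeR adjusted p = 0.663) and *ELF4* of 0.99 ± 0.20 (edgeR adjusted p = 0.661). Without *ubp13* replicate 3 the median log2FC was 0.19, and without wt replicate 2 it was 0.415.

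**Figure D3:**
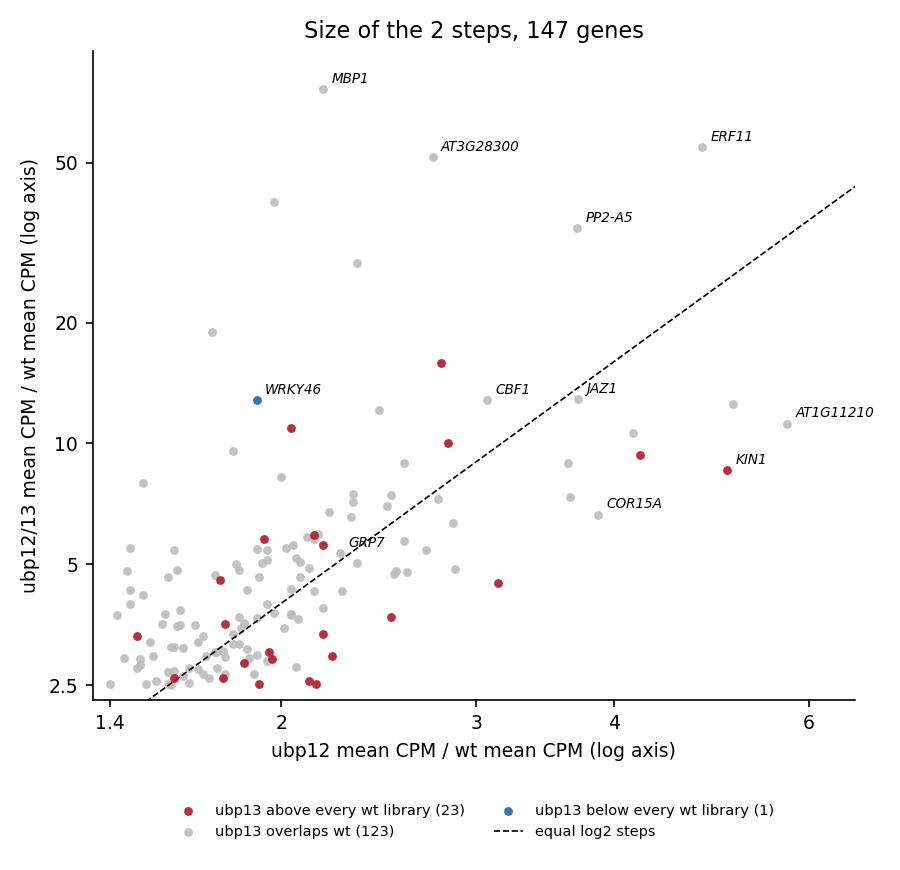
Mean CPM in *ubp12/13* over wt (vertical, log axis) against mean CPM in *ubp12* over wt (horizontal, log axis) for the 147 genes, with the dashed line where the step from *ubp12* to *ubp12/13* equals the step from wt to *ubp12* on the log2 scale. Red points are the 23 genes with all *ubp13* libraries above wt, the blue point is *WRKY46*, and genes such as *MBP1* (2.18 and 76.3 times wt) lie far above the line and *KIN1* (5.06 and 8.59 times) below it.

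Several of the largest rises lay mostly in the step from *ubp12* to *ubp12/13*. *MBP1*, which encodes a myrosinase-binding protein, had 719, 712 and 802 CPM in *ubp12/13*, 21.8, 22.1 and 19.9 CPM in *ubp12*, 6.57, 6.58 and 10.1 CPM in *ubp13* and 11.2, 9.71 and 8.4 CPM in wt. Its *ubp12/13* libraries stood far apart from all others, at 76.3 times the wt mean, while its *ubp12* libraries were 2.18 times and its *ubp13* libraries overlapped wt. *AT1G52000*, a mannose-binding lectin gene 14178 bases away on the same strand, followed with 736, 742 and 837 CPM in *ubp12/13*, 76.6, 52.8 and 83.3 CPM in *ubp12*, 31.5, 30.7 and 45.3 CPM in *ubp13* and 45.7, 33.3 and 43.7 CPM in wt. *ERF11*, a repressor of the ethylene response factor family, had a large *ubp12* step as well. It had 61.9, 55.8 and 57.3 CPM in *ubp12/13*, 6.37, 4.61 and 4.4 CPM in *ubp12*, 1.3, 0.392 and 1.67 CPM in *ubp13* and 0.421, 2.02 and 0.764 CPM in wt, which is 54.6 and 4.8 times wt in the 2 mutants. The phloem lectin gene *PP2-A5* reached 34.4 times wt in *ubp12/13* and 3.7 times in *ubp12*, the pseudogene *AT2G16367* 28.2 and 2.34 times, and the MYB factor gene *MYB47* 15.9 and 2.79 times. *AT3G28300* and *AT3G28290*, both putative transmembrane protein genes, read 51.6 and 39.8 times wt in *ubp12/13*, but 100% of the 31-base words of each occur elsewhere in the genome, so their reads cannot be assigned to 1 copy.

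Of the 8 genes with the largest *ubp12* steps, *ERF11*, *JAZ1*, *KIN1* and *COR15A* are described with their roles. *AT1G11210*, a gene of unknown function with a DUF761 domain, had 36.9, 21 and 24.7 CPM in *ubp12/13*, 15.7, 12.2 and 14.5 CPM in *ubp12*, 3, 4.78 and 5.3 CPM in *ubp13* and 2.42, 3.15 and 1.83 CPM in wt, so that *ubp12* was at 5.73 times and *ubp12/13* at 11.2 times wt. *AT1G80130*, a tetratricopeptide repeat gene, was at 5.12 times wt in *ubp12* and 12.5 times in *ubp12/13*, *AT1G51090*, a heavy metal transport family gene, at 4.22 and 9.37 times, and *AT3G27250*, of unknown function, at 4.16 and 10.6 times. *AT3G27250* also had the highest *ubp13* fold of the list, 3.18, which rested on 1 library at 10.2 CPM while the other two were at 1.46 and 3.29. Among the genes most abundant in wt, *AT1G13930*, annotated as an oleosin-like protein, had 1794, 1741 and 1527 CPM in *ubp12/13*, 1212, 1161 and 1041 CPM in *ubp12*, 778, 906 and 782 CPM in *ubp13* and 611, 552 and 575 CPM in wt. Its 4 genotypes did not overlap, in the order *ubp12/13*, *ubp12*, *ubp13*, wt. *AT2G33830*, a dormancy and auxin associated gene, was at 2.77 times wt in *ubp12/13* and 2.06 times in *ubp12*.

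To describe the biology, 54 of the 147 genes were placed in 5 roles after their values had been seen, so no test was made on these groups. The jasmonate role had 9 genes with a median of 7.95 times wt in *ubp12/13*, 1.94 in *ubp12* and 1.03 in *ubp13*. For the 10 cold and dehydration genes the medians were 5.68, 2.13 and 1.5, for the 21 defence genes 4.3, 1.9 and 1.05, for the 9 clock and light genes 4.83, 2.18 and 1.25, and for the 5 carbohydrate genes 3.08, 1.7 and 1.16. The share of the log2 rise already in *ubp12* had a median of 32.8% for the jasmonate genes and of 44.2-48.8% for the other 4 roles. In *ubp13* the cold and dehydration genes ranged 1.1-2.39 times wt and the jasmonate genes 0.744-1.09. For *COR15A*, *ERD10* and *ERD7* only *ubp13* replicate 3 lay above the wt range, while for *KIN1* and *HAI1* all *ubp13* libraries did.

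**Figure D4:**
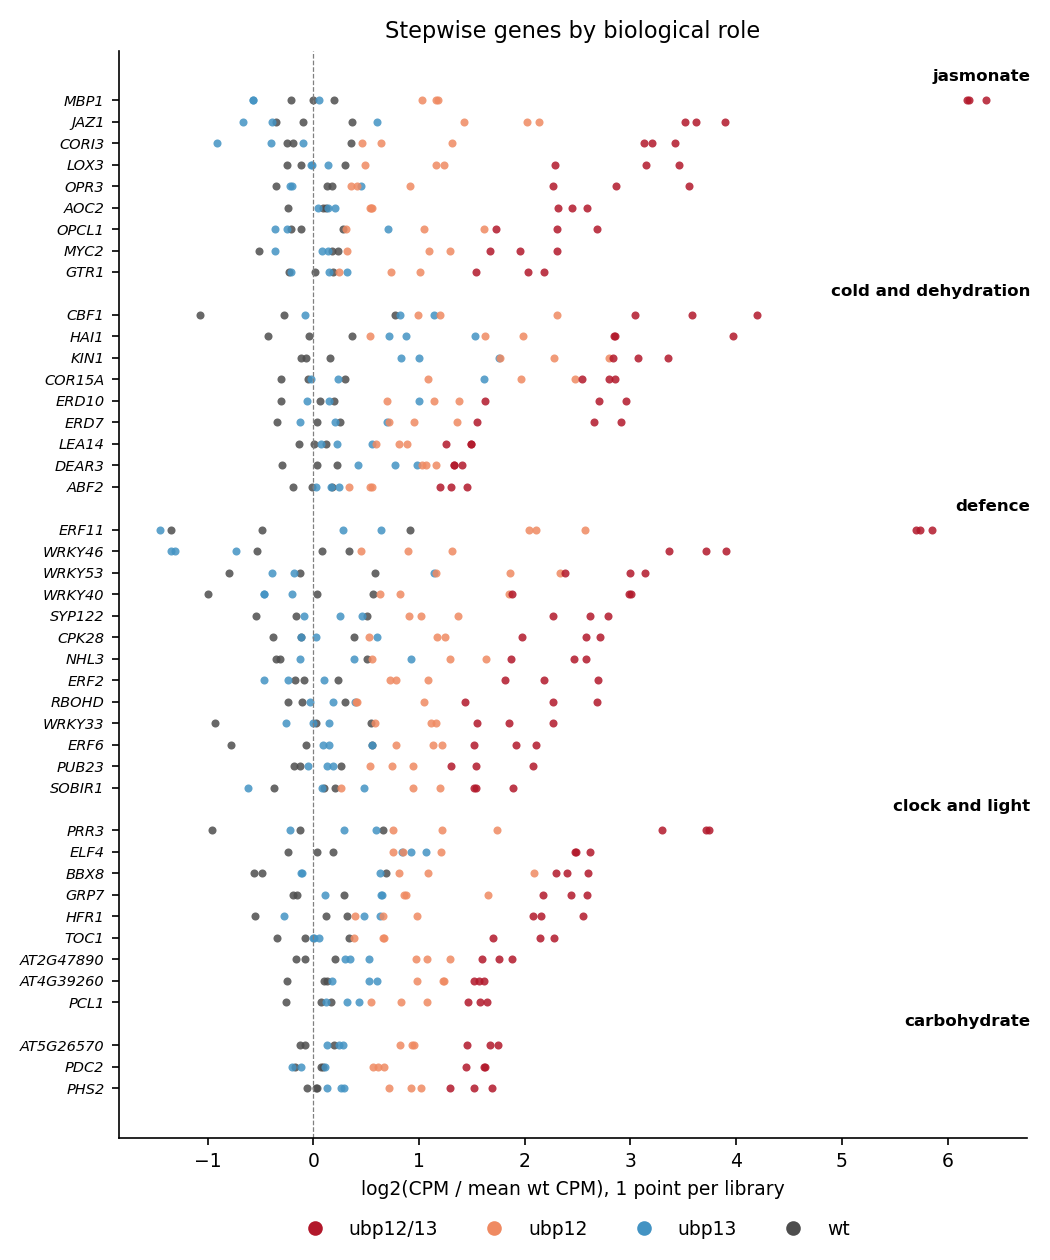
Level in each library, as log2 of CPM over the mean wt CPM, for 43 of the 54 genes placed in 5 roles, with 3 points per genotype and gene. The red *ubp12/13* points lie right of the orange *ubp12* points in every row because the rule requires it, while the blue *ubp13* points mix with the grey wt points for genes such as *LOX3* (1.03 times wt) and lie between wt and *ubp12* for *KIN1* (2.39 times wt).

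The jasmonate genes covered synthesis, repression and response. Of the enzymes, *LOX3*, a lipoxygenase that starts the pathway, had 175, 96.6 and 218 CPM in *ubp12/13*, 44.2, 27.7 and 46.6 CPM in *ubp12*, 21.8, 19.6 and 19.5 CPM in *ubp13* and 18.3, 24.3 and 16.7 CPM in wt. *OPR3*, the reductase of the peroxisomal branch, had 113, 74.7 and 182 CPM in *ubp12/13*, 19.9, 20.6 and 29.2 CPM in *ubp12*, 13.3, 13.5 and 21.2 CPM in *ubp13* and 17.5, 17 and 12.1 CPM in wt. For both, *ubp12/13* replicate 2 was the lowest of its group and *ubp13* did not pass the edgeR test against wt (*LOX3* log2FC 0.09 ± 0.13, adjusted p = 0.942, and *OPR3* 0.07 ± 0.20, adjusted p = 0.975). *AOC2*, an allene oxide cyclase, was at 5.49 times wt in *ubp12/13* and 1.46 times in *ubp12*, and *OPCL1*, the ligase that prepares the side chain for shortening, at 4.89 and 2.12 times. *JAZ1*, a repressor that is degraded when jasmonate is sensed, had 62.7, 58.1 and 75.8 CPM in *ubp12/13*, 20.6, 13.7 and 22.3 CPM in *ubp12*, 3.89, 3.21 and 7.75 CPM in *ubp13* and 4.74, 6.56 and 3.97 CPM in wt. It showed the most even steps of the group, with 3.71 times wt in *ubp12* and 12.9 times in *ubp12/13*. *MYC2*, the bHLH factor that JAZ proteins restrain, was at 3.99 and *CORI3*, a coronatine-induced gene of the tyrosine aminotransferase family, at 9.57 times wt in *ubp12/13*. *MYC2* overlaps *AT1G32630* on the other strand over 3241 bases of gene span, and the library kit does not mark strand. Reads in bases that both transcripts share therefore cannot be told apart. The deposited counts gave *AT1G32630* a mean of 6.01 CPM in wt and 7.23 in *ubp12/13*, and *MYC2* 50.6 and 202. *GTR1*, a glucosinolate transporter that can also carry jasmonate conjugates, was at 3.84 times wt.

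A list of 32 jasmonate genes gives the rest of the pathway. Of 29 tested, 17 rose and 0 fell in *ubp12/13* by edgeR, where 5.94% of all genes rose and 4.02% fell, with a median log2FC of 1.58 against -0.00182 over all genes. In *ubp12*, 2 of 29 rose and 0 fell (0.469% and 0.215% of all genes), with a median log2FC of 0.30, and in *ubp13* 0 of 29 were called. Leaving out the 6 stepwise genes, 11 of 23 rose in *ubp12/13* and 0 of 23 in *ubp12*. The repressor gene *JAZ5* had 36.9, 29.2 and 57.8 CPM in *ubp12/13* against 2.21, 1.64 and 1.37 CPM in wt (log2FC 4.37 ± 0.35 SE, edgeR adjusted p = 9.5e-05), with 5.05, 1.85 and 5.86 CPM in *ubp12*. *LOX4*, a further lipoxygenase gene, had 128, 43.9 and 161 CPM in *ubp12/13* against 4.32, 11.1 and 2.75 CPM in wt (log2FC 4.04 ± 0.58, edgeR adjusted p = 0.00129). Both stayed off the stepwise list because 1 or more of their *ubp12* libraries overlapped the wt range.

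The cold and dehydration genes ran from an early regulator to protective proteins. *CBF1*, a factor that binds the DRE sequence within minutes to hours of cold, had 20.4, 13.3 and 9.14 CPM in *ubp12/13*, 5.49, 2.54 and 2.2 CPM in *ubp12*, 1.05, 1.96 and 2.45 CPM in *ubp13* and 0.527, 1.89 and 0.917 CPM in wt. Its lowest *ubp12* library lay just above its highest wt library. *COR15A*, a chloroplast protein that shields membranes during freezing, had 198, 165 and 205 CPM in *ubp12/13*, 158, 60.4 and 111 CPM in *ubp12*, 33.4, 27.9 and 86.7 CPM in *ubp13* and 23, 27.4 and 35 CPM in wt. *KIN1*, a small hydrophilic protein gene, had 27, 18.8 and 22.2 CPM in *ubp12/13*, 18.3, 8.99 and 12.8 CPM in *ubp12*, 5.27, 4.7 and 8.93 CPM in *ubp13* and 2.95, 2.52 and 2.44 CPM in wt. For both genes most of the log2 rise was already in *ubp12* (71.4% and 75.4%), *ubp12* replicate 2 was the lowest of its group, and *ubp13* replicate 3 the highest of its group. The dehydrin gene *ERD10* was at 5.79 times wt in *ubp12/13* and 2.14 times in *ubp12*, *ERD7* at 5.57 and 2.05, *LEA14*, a late embryogenesis abundant protein gene, at 2.67 and 1.7, and *RD2* at 2.76 and 1.48. *DEAR3*, a DREB-type factor gene with a repression motif, was at 2.56 and 2.12 times wt. *HAI1*, a phosphatase that restrains abscisic acid signalling, was at 10 and 2.83 times, and *ABF2*, a factor that binds the ABRE sequence, at 2.51 and 1.4 times.

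The promoter of *COR15A* is shown because it holds letter matches to the DRE core and to the ABRE core, ACGTG, which is left in lower case. Capitals mark the DRE core, CCGAC, on either strand, which occurs at 2 places in the 300 bases before the gene start (TAIR10.1, chr2:17712331-17712630, minus strand).
COR15A: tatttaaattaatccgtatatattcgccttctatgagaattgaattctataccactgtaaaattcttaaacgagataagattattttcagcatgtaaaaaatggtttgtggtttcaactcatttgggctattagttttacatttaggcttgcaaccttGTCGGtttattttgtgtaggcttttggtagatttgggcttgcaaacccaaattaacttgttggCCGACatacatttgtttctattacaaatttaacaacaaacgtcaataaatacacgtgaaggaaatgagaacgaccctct

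On the list of 17 cold and dehydration genes, 12 of 16 tested rose and 0 fell in *ubp12/13* by edgeR, with a median log2FC of 2.07. Over all genes tested, 5.94% rose and 4.02% fell in *ubp12/13*, and 0.469% and 0.215% in *ubp12*. In *ubp12*, 5 of 17 rose and 0 fell (median log2FC 1.1), and in *ubp13* 0 of 17 were called (median log2FC 0.49). Without the 4 stepwise genes, 8 of 12 rose in *ubp12/13* and 2 of 13 in *ubp12*. *KIN2*, the neighbouring relative of *KIN1*, had 244, 197 and 277 CPM in *ubp12/13*, 201, 133 and 171 CPM in *ubp12*, 60.8, 61.2 and 137 CPM in *ubp13* and 33.3, 37.1 and 56.5 CPM in wt. It rose in both mutants (log2FC 2.36 ± 0.22, edgeR adjusted p = 0.000165 in *ubp12/13*, and 2.01 ± 0.21, edgeR adjusted p = 0.0023 in *ubp12*), and missed the stepwise rule because 1 *ubp12* library passed the lowest *ubp12/13* library. *ZAT12*, a zinc finger factor of general stress, rose in *ubp12/13* (log2FC 3.29 ± 0.44, edgeR adjusted p = 0.000946) and had a log2FC of 0.87 ± 0.37 in *ubp12* (edgeR adjusted p = 0.291). Of 27 tested abscisic acid genes, 10 rose and 0 fell in *ubp12/13* (median log2FC 0.75), and 2 rose and 0 fell in *ubp12* (median log2FC 0.32). Without the 3 stepwise genes, 7 of 24 rose in *ubp12/13* and 2 of 24 in *ubp12*. *RD29B*, a marker of abscisic acid response, had 8.07, 10.5 and 18 CPM in *ubp12/13*, 1.54, 0.692 and 2.49 CPM in *ubp12*, 0.162, 0.392 and 0.687 CPM in *ubp13* and 0.211, 0.126 and 0.153 CPM in wt. It climbed in the same order as the stepwise genes (edgeR log2FC 5.95 ± 0.57 in *ubp12/13*, adjusted p = 0.0002, and 3.09 ± 0.67 in *ubp12*, adjusted p = 0.0493) and was left out only by the wt minimum of 1 CPM. The phosphatase gene *HAI2* rose in *ubp12/13* (edgeR log2FC 2.65 ± 0.43, adjusted p = 0.00237).

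Among the defence genes were 4 WRKY factors, which bind the W-box. *WRKY33*, needed for resistance to necrotrophic fungi, had 447, 335 and 271 CPM in *ubp12/13*, 207, 139 and 201 CPM in *ubp12*, 92.7, 77.6 and 103 CPM in *ubp13* and 48.7, 135 and 94.3 CPM in wt. Its *ubp12* and wt ranges came close, at 139 and 135 CPM, both in replicate 2. *WRKY40* was at 6.55 times wt in *ubp12/13* and 2.31 times in *ubp12*, and *WRKY53*, a regulator of leaf senescence, at 7.35 and 3.65 times. *WRKY46* had 40.8, 46.5 and 32 CPM in *ubp12/13*, 7.68, 5.77 and 4.25 CPM in *ubp12*, 1.22, 1.25 and 1.86 CPM in *ubp13* and 3.27, 3.91 and 2.14 CPM in wt. It was the only stepwise gene with all *ubp13* libraries below wt (edgeR log2FC -1.08 ± 0.30, adjusted p = 0.716). The ethylene response factor genes *ERF2*, *ERF6* and *ERF8* were at 4.85, 3.65 and 2.92 times wt in *ubp12/13* and 1.83, 2.07 and 1.87 times in *ubp12*.

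Genes for the surface and vesicle side of defence were also present. *RBOHD*, the oxidase that makes the reactive oxygen burst, had 153, 85.8 and 204 CPM in *ubp12/13*, 42.4, 42.1 and 65.8 CPM in *ubp12*, 36.2, 31.1 and 41.8 CPM in *ubp13* and 29.5, 39 and 26.9 CPM in wt. *CPK28*, a calcium-dependent kinase that tunes immune signalling, was at 5.49 times wt in *ubp12/13* and 2.02 times in *ubp12*, the receptor kinase partner *SOBIR1* at 3.16 and 1.81, and the kinase gene *RIPK* at 3.09 and 1.63. *SYP122*, a plasma membrane syntaxin, was at 5.94 and 2.16, the exocyst gene *EXO70B1* at 2.69 and 1.58, and *NHL3*, which is induced by pathogens, at 5.05 and 2.34. The ubiquitin ligase gene *PUB23*, a dampener of immune signalling, was at 3.21 and 1.68 times, the hydrolase gene *NUDT7* at 2.75 and 1.68, and *PSK5*, a phytosulfokine peptide precursor, at 5.86 and 2.11. The TIR-domain genes *AT5G41740*, *AT1G72900* and *AT1G72940* were at 4.3, 3.7 and 3.11 times wt in *ubp12/13*.

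The promoter of *WRKY33* is shown because WRKY proteins are known to bind the promoters of WRKY genes. Capitals mark the W-box, TTGACC or TTGACT, on either strand, at 3 places (TAIR10.1, chr2:16107935-16108234, plus strand).
WRKY33: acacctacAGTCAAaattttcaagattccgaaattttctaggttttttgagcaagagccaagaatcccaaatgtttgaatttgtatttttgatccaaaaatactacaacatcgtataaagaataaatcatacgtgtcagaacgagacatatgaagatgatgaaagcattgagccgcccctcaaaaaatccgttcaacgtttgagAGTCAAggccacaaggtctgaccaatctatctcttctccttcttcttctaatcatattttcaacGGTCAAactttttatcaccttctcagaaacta

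Of 20 genes tested on the salicylic acid list, 1 rose, which was *WRKY33* itself, and 3 fell in *ubp12/13*. There 5.94% of all genes rose and 4.02% fell, and the median log2FC of the list was -0.39. Some of these genes were high in wt replicate 1, with 76.8, 2.4 and 0.458 CPM for *BGL2* and 14.1, 3.53 and 1.68 CPM for *PR5* in wt. Others were even, such as *EDS1* with 18.1, 16.4 and 17 CPM. The part of this library in the median was not tested. *WRKY70*, a factor that favours the salicylic acid over the jasmonate response, had 48, 47.9 and 30.9 CPM in *ubp12/13*, 170, 149 and 182 CPM in *ubp12*, 168, 73.8 and 201 CPM in *ubp13* and 119, 106 and 100 CPM in wt. It fell in *ubp12/13* (edgeR log2FC -1.52 ± 0.16, adjusted p = 0.000327), and in *ubp12* it had a log2FC of 0.63 ± 0.12 (edgeR adjusted p = 0.029), under the fold limit. Its close relative *WRKY54* also fell in *ubp12/13* (edgeR log2FC -2.04 ± 0.43, adjusted p = 0.00769) and had a log2FC of 1.04 ± 0.30 in *ubp12* (edgeR adjusted p = 0.121). Of the whole WRKY family, 8 of 39 tested genes rose and 6 fell in *ubp12/13*, and 1 of 37 rose in *ubp12* (0.469% of all genes). Without the 4 stepwise genes, which the rule chose for their rise, 4 of 35 rose and 6 fell in *ubp12/13*, and 0 of 33 rose in *ubp12*. *WRKY41* fell in *ubp12/13* (edgeR log2FC -2.02 ± 0.33, adjusted p = 0.00241). Of 16 tested ethylene response factor genes, 7 rose and 0 fell in *ubp12/13* (median log2FC 1.31), and 2 of 14 rose in *ubp12* (median log2FC 0.88). Leaving out the 4 stepwise genes among them, 3 of 12 rose in *ubp12/13* and 1 of 10 in *ubp12*. *ERF4*, a repressor of the family, rose in both (edgeR log2FC 2.07 ± 0.22, adjusted p = 0.000309 in *ubp12/13*, and 1.15 ± 0.25, adjusted p = 0.0491 in *ubp12*), and *ERF12* rose in *ubp12/13* (edgeR log2FC 2.09 ± 0.51, adjusted p = 0.0153).

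Other stress and development lists showed changes in *ubp12/13* with no stepwise member or 1. Beside them, 5.94% of all genes tested rose and 4.02% fell in *ubp12/13*, and 0.469% and 0.215% in *ubp12*. Of 9 tested heat shock genes, 2 rose in *ubp12/13* and 0 of 7 in *ubp12*. *HSP70* was one of them (edgeR log2FC 1.57 ± 0.23, adjusted p = 0.00147), and in *ubp12* its log2FC was -0.73 ± 0.19 (edgeR adjusted p = 0.0853). *HSP90.1* was the other (edgeR log2FC 1.4 ± 0.14, adjusted p = 0.000258). Of 10 tested flavonoid and anthocyanin genes, 5 rose in *ubp12/13* and 0 of 9 in *ubp12*, among them the MYB activator *PAP1* (edgeR log2FC 2.55 ± 0.28, adjusted p = 0.000353) and *UF3GT* (edgeR log2FC 2.70 ± 0.65, adjusted p = 0.0142). Of 6 tested regulators repressed by Polycomb, 3 rose in *ubp12/13* and 0 in *ubp12*. The flowering repressor *FLC* had 10.4, 8.41 and 8.25 CPM in *ubp12/13*, 0.768, 1.73 and 1.03 CPM in *ubp12*, 0.974, 1.57 and 1.67 CPM in *ubp13* and 0.211, 0.504 and 0.458 CPM in wt (edgeR log2FC 4.39 ± 0.29, adjusted p = 4.6e-05 in *ubp12/13*, and 1.61 ± 0.53, adjusted p = 0.171 in *ubp12*). Like *RD29B*, *FLC* climbed in stepwise order and was left out only by the wt minimum of 1 CPM, at levels that rest on few reads in wt. Its relative *MAF5* rose in *ubp12/13* only by that test (edgeR log2FC 2.61 ± 0.18, adjusted p = 5.8e-05, against 0.31 ± 0.35, adjusted p = 0.744 in *ubp12*), and the difference between the mutants was not tested. Of 22 tested senescence genes, 7 rose and 3 fell in *ubp12/13* and 1 of 20 rose in *ubp12*, with *SAG29* (edgeR log2FC 2.46 ± 0.38, adjusted p = 0.0017) and *NYE2* (edgeR log2FC 2.68 ± 0.59, adjusted p = 0.00925) rising in *ubp12/13*. Without the stepwise *WRKY53*, 6 of 21 rose and 3 fell in *ubp12/13*, and 0 of 19 rose in *ubp12*.

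Enzyme families were collected by gene symbol, so members without a family symbol were not counted. The shares over all genes tested were 5.94% higher and 4.02% lower in *ubp12/13*, and 0.469% and 0.215% in *ubp12*. Of 110 tested cytochrome P450 genes, 14 rose and 13 fell in *ubp12/13*, 0 of 109 were called in *ubp12*, and *CYP704A2* and *CYP72A14* were stepwise, at 5.46 and 3.2 times wt in *ubp12/13* and 1.9 and 1.52 times in *ubp12*. Without these 2, 12 of 108 rose and 13 fell in *ubp12/13*. *AT3G44970*, annotated to the same superfamily but outside the count, was also stepwise, at 5.58 times wt in *ubp12/13* and 2.18 times in *ubp12*. *CYP71B22* fell (edgeR log2FC -4.41 ± 0.31, adjusted p = 6.2e-05) and *CYP81D8* rose (edgeR log2FC 2.41 ± 0.52, adjusted p = 0.00875) in *ubp12/13*. Of 16 tested tau-class glutathione transferases, 4 rose in *ubp12/13* and 0 of 17 in *ubp12*, with *GSTU24* at 78.9, 75.3 and 73 CPM in *ubp12/13*, 6.81, 5.77 and 7.33 CPM in *ubp12* and 8, 12.1 and 7.18 CPM in wt. *GSTU8* rose as well (edgeR log2FC 1.88 ± 0.35, adjusted p = 0.00427). Of 38 tested UDP-glycosyltransferases, 9 rose and 2 fell in *ubp12/13*, and 1 of 37 fell in *ubp12*, with *UGT76E2* (edgeR log2FC 2.86 ± 0.73, adjusted p = 0.0176) and *UGT73B3* (edgeR log2FC 2.02 ± 0.22, adjusted p = 0.000377) rising. None of the 38 was stepwise, but *AT4G27560* and *AT4G09500*, annotated to that superfamily and outside the count, were, at 4.82 and 2.81 times wt in *ubp12/13* and 1.45 and 1.49 times in *ubp12*. Of 39 tested NAC genes, 10 rose and 1 fell in *ubp12/13* and 0 of 37 were called in *ubp12*. Leaving out the stepwise *NAC046*, 9 of 38 rose and 1 fell in *ubp12/13*. *NAC036* (edgeR log2FC 2.87 ± 0.34, adjusted p = 0.000508) and *NAC001* (edgeR log2FC 2.54 ± 0.29, adjusted p = 0.000446) rose, and the stepwise *NAC046*, a promoter of senescence, was at 5.05 times wt in *ubp12/13* and 1.92 times in *ubp12*. The 8 pathway lists together hold 180 genes, not all of which passed the filter for testing. On them, 57 genes rose and 6 fell in *ubp12/13* (5.94% and 4.02% of all genes tested). The counts in *ubp12* were 10 higher and 0 lower (0.469% and 0.215% of all genes tested). These totals include the 15 stepwise genes on the lists, which the rule chose for their rise, so they are a description. In *ubp12*, the other genes that rose were 2 on the abscisic acid list and 2 on the cold and dehydration list.

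Clock genes of the evening formed a further set. *TOC1*, an evening repressor of morning genes, had 126, 92.7 and 138 CPM in *ubp12/13*, 37.3, 45.3 and 45 CPM in *ubp12*, 28.6, 28.4 and 29.6 CPM in *ubp13* and 22.5, 35.9 and 26.9 CPM in wt. *PRR3*, its relative, had 27.4, 27.8 and 20.5 CPM in *ubp12/13*, 3.51, 6.92 and 4.84 CPM in *ubp12*, 1.78, 3.13 and 2.55 CPM in *ubp13* and 1.9, 3.28 and 1.07 CPM in wt. The *ubp12* step was small for *TOC1* (1.5 times wt) and larger for *PRR3* (2.45 times), and both had most of their rise in *ubp12/13* (4.19 and 12.1 times). ELF3, ELF4 and the factor encoded by *PCL1*, also known as LUX, form the evening complex. *ELF4* had 16.5, 15 and 15.1 CPM in *ubp12/13*, 4.83, 6.23 and 4.54 CPM in *ubp12*, 5.11, 5.64 and 4.81 CPM in *ubp13* and 3.05, 2.27 and 2.75 CPM in wt. Here both single mutants were at 1.93 times wt and overlapped with each other, and no *ubp13* library overlapped wt. *PCL1* was at 2.94 times wt in *ubp12/13* and 1.78 times in *ubp12*, and it overlaps *AT3G46650* on the other strand over 1507 bases. *ELF3* missed the list by its *ubp12* fold.

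The RNA-binding protein genes *GRP7* and *AT4G39260*, known as *GRP8*, oscillate under the clock and are also raised by cold. *GRP7* had 1489, 1647 and 1239 CPM in *ubp12/13*, 504, 861 and 495 CPM in *ubp12*, 296, 431 and 428 CPM in *ubp13* and 246, 336 and 240 CPM in wt. *AT4G39260* had 669, 624 and 648 CPM in *ubp12/13*, 430, 513 and 510 CPM in *ubp12*, 247, 313 and 330 CPM in *ubp13* and 239, 233 and 183 CPM in wt. They differed in where the rise lay, since 73.4% of the log2 rise of *AT4G39260* was already in *ubp12*, while *GRP7* went on to 5.32 times wt. The B-box genes *BBX8* and *AT2G47890* were at 5.42 and 3.36 times wt in *ubp12/13* and 2.7 and 2.18 times in *ubp12*, and *HFR1*, a bHLH factor of light signalling, at 4.83 and 1.61 times.

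Evening genes are read against the other phases of the clock, with a list of 14 genes chosen after values had been seen and given as levels only. Of the morning genes, *CCA1* had 41.4, 69.5 and 66 CPM in *ubp12/13*, 50.6, 42.8 and 53.6 CPM in *ubp12*, 74.3, 75.3 and 58.3 CPM in *ubp13* and 102, 94.5 and 110 CPM in wt. *LHY* had 1.98, 5.71 and 6.23 CPM in *ubp12/13*, 2.52, 3.34 and 2.49 CPM in *ubp12*, 7.71, 7.52 and 4.81 CPM in *ubp13* and 14.4, 8.83 and 11.6 CPM in wt. All mutant libraries lay below all wt libraries for both genes, and *ubp12* lay as low as or lower than *ubp12/13* on average, which is not the stepwise order. *RVE8*, also on the list, was at 0.889 times wt in *ubp12/13*, 0.443 in *ubp12* and 0.629 in *ubp13*. Its *ubp12/13* libraries overlapped wt, with 11.6, 20 and 16.7 CPM against 18.5, 15.9 and 20 CPM. *PRR9* was at 0.485 times wt in *ubp12/13*, 0.664 in *ubp12* and 0.761 in *ubp13*, *PRR7* at 0.828, 0.923 and 0.931, *PRR5* at 2.4, 2.03 and 1.14, and *GI* at 1.97, 1.56 and 1.2. *PRR5* and *GI* were also highest in replicate 2 among the wt libraries, with 30, 61 and 35.4 CPM for *PRR5* and 62.4, 92.2 and 66.8 CPM for *GI* in wt. The position of each library within the harvest window is not given in the sources used here, and its part in these differences was not tested.

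The promoters of *TOC1*, *PCL1*, *GRP7* and *AT4G39260* are shown because each holds the evening element, AAAATATCT, within 300 bases of the gene start. Capitals mark it on either strand, and *GRP7* holds it 3 times. The windows are chr5:24674663-24674962 (plus strand), chr3:17182742-17183041 (plus), chr2:9266558-9266857 (minus) and chr4:18275217-18275516 (minus) in TAIR10.1.
TOC1: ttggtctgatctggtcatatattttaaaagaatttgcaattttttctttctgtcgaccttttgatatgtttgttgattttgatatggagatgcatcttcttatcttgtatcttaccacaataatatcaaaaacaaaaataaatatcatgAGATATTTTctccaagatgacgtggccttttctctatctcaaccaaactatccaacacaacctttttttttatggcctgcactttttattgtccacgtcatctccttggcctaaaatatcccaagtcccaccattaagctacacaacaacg
PCL1: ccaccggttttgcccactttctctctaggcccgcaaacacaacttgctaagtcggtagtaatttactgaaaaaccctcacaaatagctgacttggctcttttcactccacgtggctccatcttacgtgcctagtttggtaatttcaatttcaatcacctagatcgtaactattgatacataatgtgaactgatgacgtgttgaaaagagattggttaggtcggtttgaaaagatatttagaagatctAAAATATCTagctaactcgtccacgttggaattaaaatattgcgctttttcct
GRP7: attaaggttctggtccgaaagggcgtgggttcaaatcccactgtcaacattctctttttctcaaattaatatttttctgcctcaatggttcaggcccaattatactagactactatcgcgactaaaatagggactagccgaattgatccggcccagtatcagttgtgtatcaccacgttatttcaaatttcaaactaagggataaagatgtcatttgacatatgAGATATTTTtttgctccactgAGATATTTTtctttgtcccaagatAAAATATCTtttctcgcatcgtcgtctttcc
AT4G39260: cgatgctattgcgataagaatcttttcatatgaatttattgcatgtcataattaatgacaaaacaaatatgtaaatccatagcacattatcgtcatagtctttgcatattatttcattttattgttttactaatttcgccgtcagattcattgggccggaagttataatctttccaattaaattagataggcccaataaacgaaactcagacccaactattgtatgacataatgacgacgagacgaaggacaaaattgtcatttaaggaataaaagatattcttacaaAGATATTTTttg

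Over all 147 genes, the evening element was present in 300 bases of promoter for 17 genes (11.6%), against 2.79% of 27444 protein-coding genes, and in 1000 bases for 22.4% against 7.24%. Besides the 4 genes shown, it was found in *BBX8*, *LOX3*, *NAC046*, *LEA14*, *MT2A*, *PDC2*, *PDX2*, *GATL10*, *WAKL6*, *AT5G17460*, *AT3G51450*, *AT5G62360* and *AT5G26570*. The ABRE core, ACGTG, was present for 42.2% against 25.6%, the G-box, CACGTG, which contains the ABRE core, for 12.9% against 7.09%, and the DRE core for 27.2% against 13.9%. The W-box was present for 38.8% against 32.3%, the GCC-box, GCCGCC, for 4.08% against 2.26%, and the CGCG-box, searched as ACGCGT and in the variant forms ACGCGG and also CCGCGT, for 5.44% against 3.86%. The heat shock element, GAANNTTC, was present for 8.84% against 11.5%, the motif bound by the demethylase REF6, CTCTGCTC, CTCTGCTT, CTCTGTTC or CTCTGTTT, for 5.44% against 6.87%, and the telo-box, AAACCCTA, for 1.36% against 5.21%. Among the promoters of genes with a mean wt CPM of at least 1 the evening element had a share of 3.03%. In the window of 1000 bases the W-box share was 68% against 67.3%, that of the DRE core 49.7% against 37.4% and that of the ABRE core 70.1% against 54.4%. These shares are descriptions, and a match of letters is not a bound site.

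**Figure D5:**
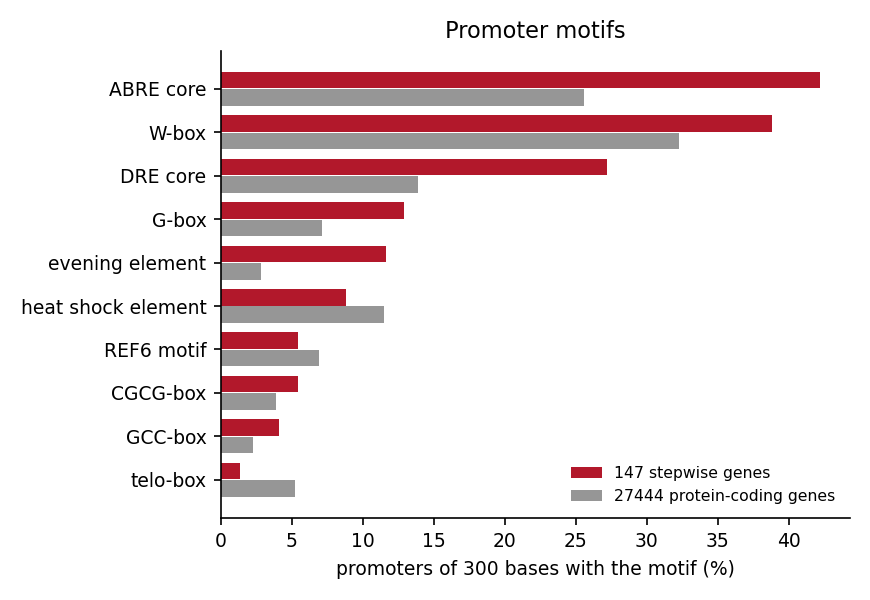
Share of promoters, in percent, with each of 10 motifs in the 300 bases before the gene start, for the 147 stepwise genes (red) and 27444 protein-coding genes (grey). The evening element stood at 11.6% against 2.79%, the DRE core at 27.2% against 13.9% and the telo-box at 1.36% against 5.21%.

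Carbohydrate genes were the smallest of the 5 roles. *PHS2*, the cytosolic glucan phosphorylase that acts on sugars released from starch, had 673, 596 and 508 CPM in *ubp12/13*, 394, 421 and 342 CPM in *ubp12*, 228, 249 and 254 CPM in *ubp13* and 200, 213 and 212 CPM in wt. *AT5G26570*, the phosphoglucan water dikinase that opens starch granules for breakdown, had 365, 346 and 298 CPM in *ubp12/13*, 208, 211 and 192 CPM in *ubp12*, 119, 129 and 132 CPM in *ubp13* and 99.6, 125 and 103 CPM in wt. Both showed small spread within a genotype, and the *ubp13* libraries of *PHS2* all lay above wt at 1.17 times its mean. The glycolytic gene *PFK3* was at 3.77 times wt in *ubp12/13* and 1.57 times in *ubp12*, the pyruvate decarboxylase gene *PDC2* at 2.96 and 1.53, and the inositol oxygenase gene *MIOX1* at 3.31 and 1.7.

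The deposited peaks of increased H2Aub1, the monoubiquitinated form of histone H2A, in *ubp12/13* over wt came from rosette leaves of older, soil-grown plants, so they were read as positions only. Of the 147 genes, 6 (4.08%) had such a peak within 1 kb downstream of the gene start, against 1.8% of genes with a mean wt CPM of at least 1 and 3.58% of all protein-coding genes. They were *CBF1*, *RBOHD*, *DOG1*, a regulator of seed dormancy, *AT1G56150*, a SAUR-like auxin-responsive gene, *AT3G27250* and *AT2G44290*, a lipid transfer protein gene. The peak at *CBF1* spanned chr4:13021675-13022827, covering most of the gene at chr4:13021780-13022996, and that at *DOG1* spanned chr5:18589976-18592387. *DOG1* had 16.9, 16.6 and 15.4 CPM in *ubp12/13*, 8.34, 8.99 and 11 CPM in *ubp12*, 5.44, 7.6 and 6.58 CPM in *ubp13* and 2.95, 7.82 and 4.74 CPM in wt. *AT1G56150* was at 10.9 times wt in *ubp12/13* and 2.04 times in *ubp12*, and *AT2G44290* at 3.74 and 1.42 times. With the gene body and 2 kb upstream as the window, 11 genes (7.48% against 4.21%) held a peak, the added ones being *GRP7*, *MT2A*, *AT3G17070*, *AT3G55580* and *AT4G14270*. Most stepwise genes thus had no such peak, and the 6 with one ranged 3.16-12.8 times wt in *ubp12/13*.

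In the genome, 36, 30, 29, 21 and 31 of the 147 genes lay on chromosomes 1 to 5, or 24.5%, 20.4%, 19.7%, 14.3% and 21.1%, against 26.6%, 15.2%, 20%, 15.1% and 23.1% of genes with a mean wt CPM of at least 1. Only 2 (1.36%, against 4.69%) lay within 2 Mb of *UBP12*. There were 7 pairs of stepwise genes within 20 kb of each other, among them *MBP1* with *AT1G52000*, *WRKY33* with *AT2G38465*, 1299 bases apart, *RD2* with *GRP7*, *ERD10* with *OPCL1* and the TIR-domain genes *AT1G72900* and *AT1G72940*. Transcripts had a median of 1573 bases and 3 exons, against 1782 bases and 5 exons for genes with a mean wt CPM of at least 1, and 34 (23.1%, against 14.1%) had a single exon. Of the 147, 144 were protein coding. A further 7 genes besides *AT3G28290* and *AT3G28300* shared over 10% of their 31-base words with other places, and 30 overlapped another counted gene, among them *WRKY53* over 341 bases with *AT4G23800* on the other strand, so their counts are less certain.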

How the data were processed

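Whole-seedling RNA was read as 50-base single ends from 12 libraries made with a kit that does not mark strand. The authors trimmed the RNA reads with cutadapt 1.18, aligned them to TAIR10 with TopHat2 and deposited raw counts per gene from HTSeq 0.11.1. The deposited peak file gives the start and end of 1285 regions where the authors called more H2Aub1 in *ubp12/13* than in wt, from 2 ChIP replicates per genotype whose reads were trimmed with Trimmomatic 0.38 and aligned with Bowtie2 2.2.9. Nuclear counts only were used. The genes were chosen by their CPM as the report describes, and the genes and lists were chosen with earlier results of these data known. Each mutant was fitted against wt with edgeR 4.0.16 (R 4.3.3, quasi-likelihood F-test, TMM, CPM over 1 in at least 2 of 6 libraries, Benjamini-Hochberg over all genes tested, call at adjusted p under 0.05 and a log2FC of at least 1 in size), with standard errors from the F statistic and with DESeq2 1.42.0 as an alternative. The fits were tested on simulated *ubp13* and wt libraries with the same spread for every gene. Of 98 genes with a true log2 change of 1 in size, 38 were called and 81 passed the adjusted p alone. All 98 genes with a change of 2 were called, and 2 of 17403 unchanged genes. Calls in *ubp13* can therefore miss changes near the fold limit. Larger changes also went uncalled in the data where the spread was wide. Examples in *ubp13* were *FLC* (log2FC 1.9 ± 0.47, edgeR adjusted p = 0.663) and *AT3G27250* (1.71 ± 0.7, edgeR adjusted p = 0.796). The simulation, with its single spread, does not show how often such changes are missed. Libraries held 6545534 or more nuclear counts, so levels near 1 CPM rest on few reads. Promoters are the 300 bases before each annotated gene start in the RefSeq TAIR10.1 annotation, whose coordinates were compared with the peaks' build by chromosome length, and 32835 of 33323 nuclear IDs had a record. Named are the 10 genes with the largest *ubp12/13* fold, the 8 with the largest *ubp12* fold, the 5 most abundant in wt, the list and family members, the genes with a peak in the first 1 kb, those at the thresholds, and up to 2 called non-members per list. Other genes were named by role after their values were seen. Alternatives were other scalings, filters, tools, a replicate block, windows and leaving out each library.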

Additional observations from a re-analysis of the deposited data

Results flagged for a closer look

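For *WRKY46*, every *ubp12* library lay above and every *ubp13* library below the wt libraries. Its mean in *ubp13* was 0.465 times the wt mean, and its mean in *ubp12* was 1.9 times the wt mean. Neither passed the edgeR test against wt (adjusted p = 0.125 in *ubp12* and 0.716 in *ubp13*), and 10.1% of all genes had every *ubp13* library below wt. The *ubp12* and wt libraries chose the gene, and the difference between the single mutants was not tested.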

How the results depend on the processing

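The number of stepwise genes depended on the libraries and on the wt minimum. It was 92 with a mean wt CPM of at least 5, and 141 to 235 when 1 library was left out, with 235 without *ubp12* replicate 2 and 227 without wt replicate 2. The number with a peak was 11 with the gene body and 2 kb upstream as the window. In *ubp13*, 0 stepwise genes were called higher and 0 lower by edgeR under any alternative, and their median log2FC ranged 0.19 to 0.415 with 1 library left out. Among the pathway lists, the genes that fell in *ubp12/13* numbered 11 with no filter on low counts. In *ubp12*, 17 pathway genes rose and 3 fell with no filter. With 1 library left out, 6 to 15 rose in *ubp12*, with 6 without *ubp12* replicate 1 and also 6 without *ubp12* replicate 3, and 0 to 2 fell, with 1 without *ubp12* replicate 2, 2 without wt replicate 1 and 1 without wt replicate 3. Library numbers did not pair the samples, since same-numbered mutant and wt libraries correlated at -0.241 to 0.129 in their deviations. With the replicate number as a block, 56 pathway genes rose in *ubp12/13*, 8 rose and 2 fell in *ubp12*, and the median log2FC in *ubp13* was 0.28. Of 728 counts for single lists under an alternative, 640 stayed within 1.5 times the reported count. The cause of these shifts was not tested. Low levels limit the precision of genes near 1 CPM, and 3 libraries per genotype limit all comparisons.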
